A study of Homo sapiens with 2 samples.

Results

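The genes described here encode the translation initiation factors, the proteins that load initiator tRNA and mRNA onto the small ribosomal subunit and find the start codon, together with the kinases and binding proteins that control them. They were taken by name: every protein-coding gene of GENCODE 29 whose symbol starts with EIF1, EIF2, EIF3, EIF4, EIF5 or EIF6, which gave 56 genes of the 58884 listed in both count files. RNA came from T24/R, a cultured line from human urinary bladder, described as epithelial, whose name carries that of the bladder carcinoma line T24. One culture was exposed for 6 h to 1600 nM THZ1, a covalent inhibitor of the transcription kinase CDK7 that also acts on CDK12 and CDK13, and the other for 6 h to the solvent DMSO. Each group had 1 library, so no difference has a replicate check, no p-value is given, and the intervals cover counting error only.

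In cap-dependent initiation, eIF4F binds the mRNA cap and unwinds the leader, eIF3 joins the mRNA to the small subunit, and eIF2 brings initiator tRNA. eIF1, eIF1A and eIF5 then govern which codon is accepted as the start, and eIF5B joins the large subunit. The best known controls are phosphorylation of eIF2 by 4 stress kinases, which blocks its recycling by eIF2B, and capture of the cap-binding protein eIF4E by the 4E-binding proteins downstream of mTORC1.

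After 6 h of THZ1 most initiation factor mRNAs stayed within 2-fold of DMSO relative to the bulk of the transcriptome, while a few stood well apart. EIF5, which encodes the GTPase-activating protein of eIF2, was 2.35-fold lower although it was among the most abundant of these mRNAs. EIF1AD was 4.72-fold lower, EIF2AK3, which encodes the endoplasmic reticulum stress kinase PERK, 2.89-fold lower, and EIF4ENIF1, which encodes the eIF4E transporter 4E-T, 2.34-fold lower. EIF4A1 was 3.30-fold lower, but on few counts and with much of its exonic sequence shared with other genes, so the value is uncertain. EIF3H, an eIF3 subunit gene, was 2.31-fold higher on this scaling and no longer past the rule with total counts. In RNA from whole cultures, fewer cells of a kind and less RNA per cell cannot be told apart.

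Genes with a count of 30 or above in either library were tested. The rule for a lower or a higher gene asked for a ratio of 2-fold or beyond and for a 95% interval that left out equality. Ratios are THZ1 over DMSO after TMM scaling, which sets the bulk of the tested genes near equality, and a bracket after a pair of counts holds the log2 ratio and then its interval. Of the 50 initiation factor genes tested, 5 were lower, 1 was higher and 44 were neither. Among all 12457 tested genes 21.3% were lower and 9.7% higher, and in the protein-coding subset the shares were 22% and 7.61%. The initiation factor genes held 10% lower and 2% higher. Their median log2 ratio was 0.35, beside −0.03 for all tested genes, and 33 of the 50 lay above that median of all genes. The choice of scaling moves these values. With total counts in place of TMM every log2 ratio shifts by −0.51, and with the mitochondrially encoded mRNAs as the reference by −1.69. The median of the initiation factor genes then becomes −0.17 or −1.34, beside −0.54 or −1.72 for all tested genes, so their distance above the median of all genes is the same on each scale while their sign is not. Without EIF3C and EIF3CL, which are near-identical copies, and EIF4A1, which has few counts and shares exonic bases with other genes, 4 of 47 were lower and 1 was higher, with a median of 0.35. Genes with shared exonic bases remain among the 47, such as EIF3L with 51.8% shared.

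The libraries held 18313827 counts in THZ1 and 18445831 in DMSO. Together the initiation factor genes took 1.12% (95% Wilson interval 1.12 to 1.13) of the counts in THZ1 and 1.28% (1.28 to 1.29) in DMSO, including untested genes. EIF5 alone took 0.0329% in THZ1 and 0.111% in DMSO. These are shares of total counts and are not on the TMM scale. Of 15 epithelial and urothelial markers, KRT18 had 494 counts in THZ1 and 696 in DMSO and KRT8 had 100 in THZ1 and 77 in DMSO. The uroplakin genes UPK1B and UPK3A and KRT20 had 0 in both libraries, and EPCAM and CDH1 had 3 or fewer in either. FOXA1, a transcription factor gene of luminal urothelium, had 21 counts in THZ1 and 129 in DMSO, and GATA3, another, had 12 in THZ1 and 25 in DMSO. Among markers of other cells, VIM, an intermediate filament gene of mesenchymal cells, had 84532 counts in THZ1 and 63269 in DMSO. The others were low: COL1A1 had 20 counts in THZ1 and 30 in DMSO, and PECAM1 had 2 in THZ1 and 1 in DMSO. PTPRC and CD3E had 1 or 0 in either library. The 15 epithelial and urothelial markers summed to 43.3 CPM in THZ1 and 43.6 CPM in DMSO. Of this, KRT18 alone made up 32.2 CPM in THZ1 and 31.6 CPM in DMSO. The sum therefore follows KRT18, and it does not show that the other markers were alike; the part of these markers in the initiation factor values was not tested.

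**Figure D1:**
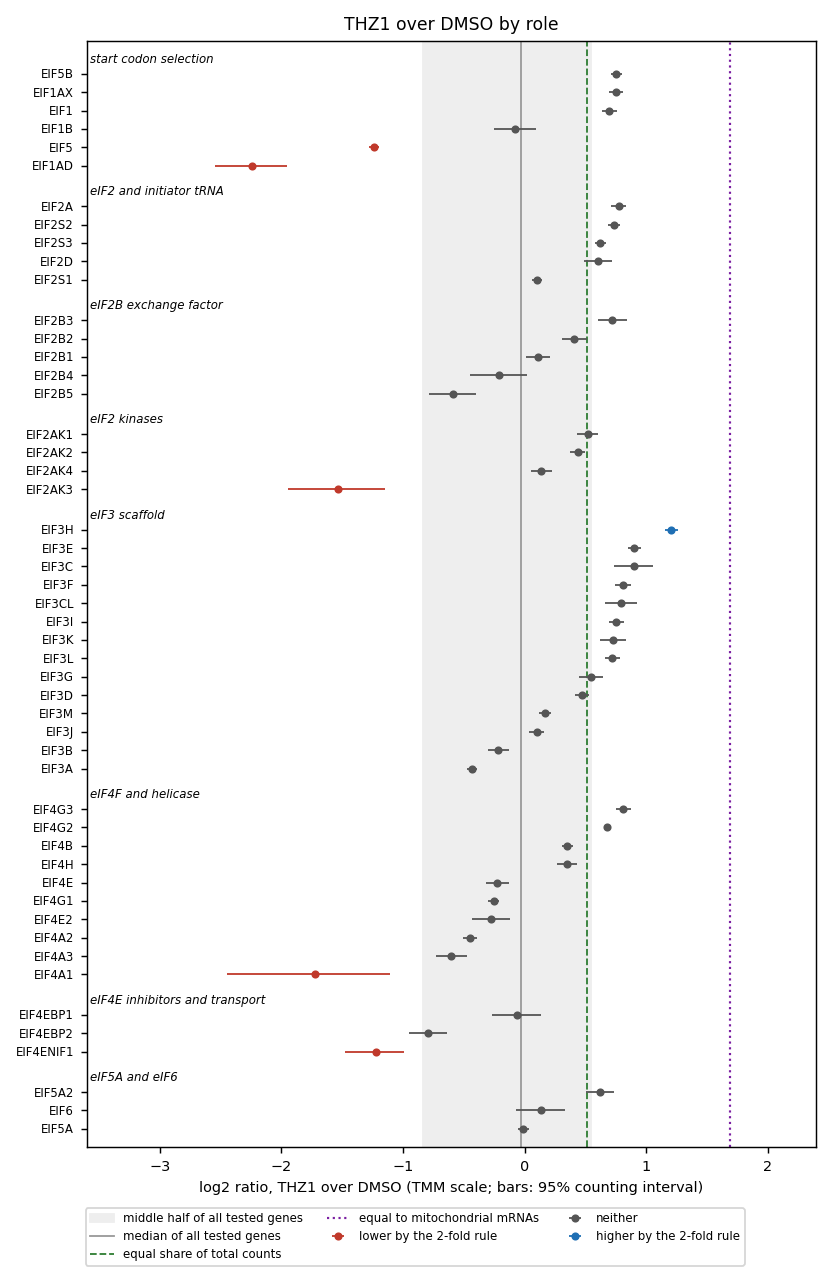
Log2 ratio of THZ1 over DMSO (x axis, TMM scale) for the 50 tested initiation factor genes, grouped by role, with 95% counting intervals as bars and 1 library per group. The 5 red genes lie at −1.23 or below and the blue gene EIF3H at 1.21; the dashed and dotted lines at 0.51 and 1.69 mark where 0 would lie with total counts and with the mitochondrial mRNAs as reference.

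The promoters of the 4 lower genes with reliable counts are shown because they carry the clearest difference in the family. The windows run from 130 bases before to 20 after each start in RefSeq (GRCh38.p14), and EIF5 has 2 annotated starts. Capitals mark matches on either strand to the TATA box (TATAAA), the CCAAT box (CCAAT), the GC box (GGGCGG), the ETS core (CCGGAAG), the core of the cAMP response element (TGACG), the E-box (CACGTG) and an ATF4 site (TGATGCAA), where 2 matches in the upstream window of EIF5 overlap.
EIF1AD, chr11:66002138-66002287, minus strand: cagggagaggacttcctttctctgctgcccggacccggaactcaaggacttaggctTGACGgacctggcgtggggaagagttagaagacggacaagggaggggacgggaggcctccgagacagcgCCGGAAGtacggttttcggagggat
EIF2AK3, chr2:88627445-88627594, minus strand: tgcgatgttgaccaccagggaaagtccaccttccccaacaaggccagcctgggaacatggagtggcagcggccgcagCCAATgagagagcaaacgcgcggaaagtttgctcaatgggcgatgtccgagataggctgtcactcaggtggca
EIF4ENIF1, chr22:31489823-31489972, minus strand: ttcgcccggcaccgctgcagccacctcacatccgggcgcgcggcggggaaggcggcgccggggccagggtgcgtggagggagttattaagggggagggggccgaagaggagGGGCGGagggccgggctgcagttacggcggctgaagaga
EIF5, upstream start, chr14:103334107-103334256, plus strand: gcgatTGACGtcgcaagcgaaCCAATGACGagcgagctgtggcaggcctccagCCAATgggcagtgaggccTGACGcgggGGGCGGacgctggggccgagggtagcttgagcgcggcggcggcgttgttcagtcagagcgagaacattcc
EIF5, downstream start, chr14:103334758-103334907, plus strand: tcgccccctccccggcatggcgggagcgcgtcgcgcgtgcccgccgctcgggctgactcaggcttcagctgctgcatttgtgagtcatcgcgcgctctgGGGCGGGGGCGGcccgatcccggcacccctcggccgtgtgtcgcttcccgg

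No motif searched was present in the windows of all 4 genes. The CCAAT box stood in the upstream EIF5 window and in that of EIF2AK3, and the GC box in both EIF5 windows and in that of EIF4ENIF1. The EIF1AD window held the ETS core and TGACG. The upstream EIF5 window held TGACG at 3 places and CCAAT at 2. Among all 35116 promoter windows of the same length, 22.9% held CCAAT, 36.4% GGGCGG, 7.66% CCGGAAG, 16% TGACG, 6.38% TATAAA, 4.57% CACGTG and 0.507% TGATGCAA. Among the 54 windows of tested initiation factor genes the shares were 29.6%, 51.9%, 20.4%, 24.1%, 1.85%, 13% and 0%, in the same order. The 2 sets are unlike, because the 35116 windows were not limited to tested or protein-coding genes. The 54 windows belong to 41 genes, and EIF5A alone has 6. A match describes the letters only and was not tested for binding.

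The group of start codon selection held the most abundant lower gene of the family, EIF5. It also held the lowest ratio, that of EIF1AD, which was placed in this group by its name, and a role of EIF1AD in start codon selection was not tested. EIF5 had 6025 counts in THZ1 and 20417 in DMSO, a log2 ratio of −1.24 (−1.28 to −1.19). The gene (ENSG00000100664) lies on chromosome 14 from 103333544 to 103345025 on the plus strand of GRCh38. It stayed lower with each scaling tried, at −1.75 with total counts and −2.93 with the mitochondrial reference. Per kb of exonic length, EIF5 stood at 46.2 CPM in THZ1 and 109 CPM in DMSO, rank 21 in THZ1 and rank 3 in DMSO among the initiation factor genes. Only 4 of the 390 tested protein-coding genes (1.03%) whose mean level per kb was at least that of EIF5 were called lower, EIF5 included, and 131 (33.6%) were higher.

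EIF1 and EIF1AX, which encode eIF1 and eIF1A, the factors that keep the scanning ribosome open until a start codon is met, had ratios above that of EIF5. EIF1 had 4627 counts in THZ1 and 4104 in DMSO (0.70, 0.64 to 0.76), and EIF1AX had 5165 counts in THZ1 and 4413 in DMSO (0.75, 0.69 to 0.81). EIF5B, the GTPase gene of subunit joining, had 8154 counts in THZ1 and 6949 in DMSO (0.76, 0.71 to 0.80), though 10.8% of its exonic bases overlap another gene on the opposite strand. These 3 ratios were within 2-fold, and they fall below 0 on the mitochondrial reference. The difference between 2 log2 ratios does not depend on the scaling, and that of EIF5 minus EIF1 was −1.93 (−2.01 to −1.86). eIF1 and eIF5 are known to act in opposite ways on the stringency of start codon choice, and the levels of the proteins were not measured.

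EIF1B, a close relative of EIF1, had 461 counts in THZ1 and 701 in DMSO (−0.08, −0.25 to 0.09), so its interval included equality. EIF1AD, named for a domain like that of eIF1A, had 109 counts in THZ1 and 743 in DMSO. Its log2 ratio of −2.24 (−2.55 to −1.95) was the lowest of the family, and 5.63% of all tested genes had a lower one. EIF1AD (ENSG00000175376) spans chromosome 11 from 65996545 to 66002176 on the minus strand. It stayed lower with every scaling tried. EIF1AY, a Y-linked member, was below the count minimum and its level is not given here.

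The subunits of eIF2 and the eIF2-independent carriers of initiator tRNA were all within 2-fold. EIF2S2, the beta subunit gene, had 6641 counts in THZ1 and 5740 in DMSO (0.74, 0.68 to 0.79). EIF2S3, the gamma subunit gene, had 7739 counts in THZ1 and 7234 in DMSO (0.62, 0.58 to 0.67). EIF2S1 encodes the alpha subunit that the stress kinases phosphorylate, and it had 7702 counts in THZ1 and 10324 in DMSO (0.10, 0.06 to 0.15), the lowest ratio of the group. EIF2A, whose protein can bring initiator tRNA without eIF2, had 4821 counts in THZ1 and 4053 in DMSO (0.78, 0.72 to 0.84), the highest of the group. EIF2D, which acts in ribosome recycling and re-initiation, stood at 0.60. With total counts EIF2S1 turned to −0.41 while the other 4 stayed above 0, and with the mitochondrial reference all 5 were below 0. EIF2S3B, an autosomal copy of EIF2S3, had 3 counts in THZ1 and 5 in DMSO and was not tested.

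The 5 subunit genes of eIF2B, the exchange factor that reloads eIF2 with GTP, differed in their ratios. EIF2B3, the gamma subunit gene, was highest with 1264 counts in THZ1 and 1103 in DMSO (0.72, 0.60 to 0.84). EIF2B5 encodes the catalytic epsilon subunit and was lowest, with 317 counts in THZ1 and 687 in DMSO (−0.59, −0.79 to −0.40). Epsilon and gamma form the catalytic pair of the complex, and their log2 ratios differed by −1.31 (−1.54 to −1.09), which is 2.48-fold in proportion. EIF2B2 stood at 0.41, EIF2B1 at 0.11 and EIF2B4 at −0.21. EIF2B5 was the least abundant of the 5 per kb in THZ1 at 2.88 CPM, against 4.33 CPM in DMSO, where EIF2B4 at 3.5 CPM was less abundant. No eIF2B gene passed the rule on the main scaling, and with total counts EIF2B5 did at −1.10.

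Among the 4 eIF2 kinases, 1 was lower (25%, beside 21.3% of all tested genes) and 3 were neither. EIF2AK3, which encodes PERK, had 67 counts in THZ1 and 280 in DMSO, a log2 ratio of −1.53 (−1.94 to −1.15). EIF2AK3 spans chromosome 2 from 88556741 to 88627576 on the minus strand (ENSG00000172071), and 15.1% of its exonic bases are shared with antisense genes. Most of these bases, 14.4%, are shared with an unnamed gene that had 1 count in THZ1 and 0 in DMSO. EIF2AK3-DT, with 19 counts in THZ1 and 37 in DMSO, shares 0.699%. EIF2AK1, the haem-regulated kinase HRI, had 2075 counts in THZ1 and 2085 in DMSO (0.52, 0.43 to 0.61). EIF2AK2, the kinase PKR that responds to double-stranded RNA, had 4402 counts in THZ1 and 4680 in DMSO (0.44, 0.38 to 0.50). EIF2AK4, the amino acid sensor GCN2, had 1972 counts in THZ1 and 2577 in DMSO (0.14, 0.05 to 0.22). EIF2AK3 was also the least abundant of the 4 per kb, with 0.805 CPM in THZ1 and 2.34 CPM in DMSO, while the other 3 lay between 10.8 and 26.7 CPM in THZ1 and between 9.77 and 19.7 CPM in DMSO. On any scaling the log2 difference of EIF2AK3 minus EIF2AK1 was −2.05 (−2.44 to −1.65).

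**Figure D2:**
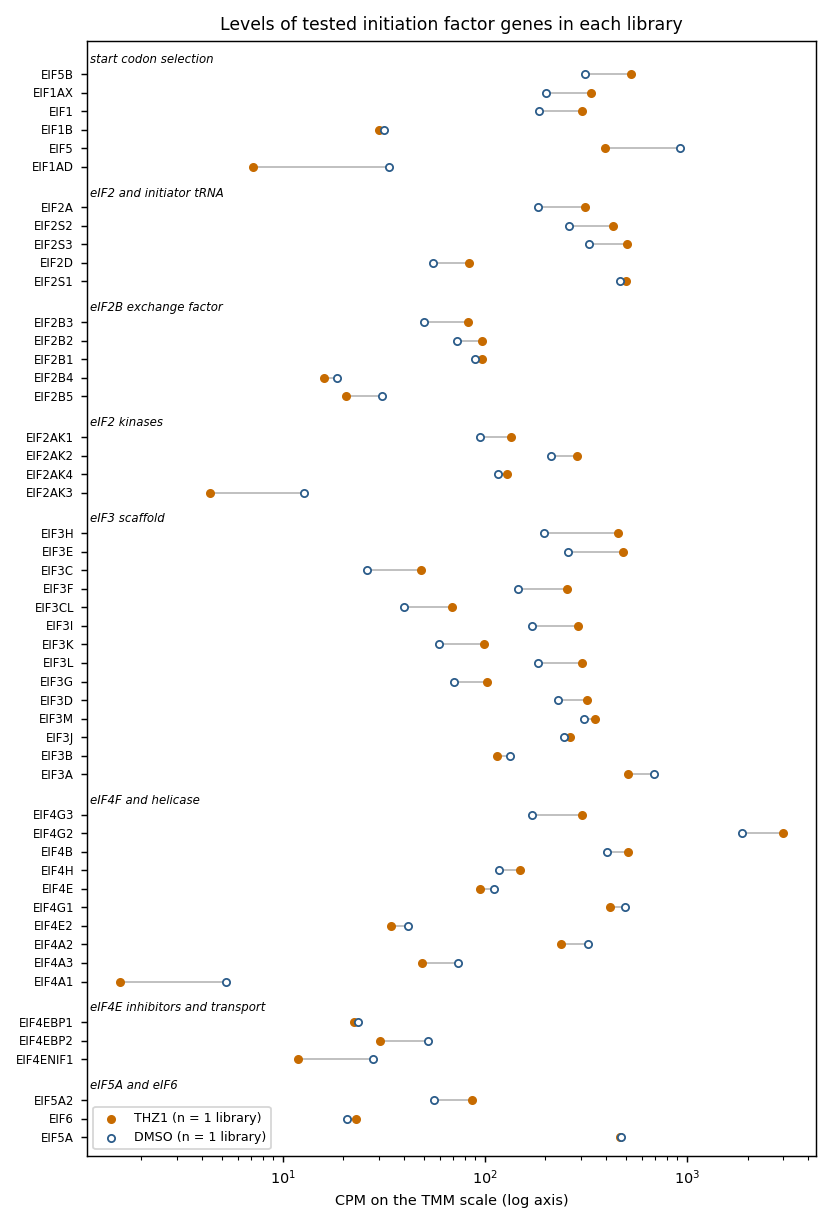
CPM on the TMM scale (x axis, log) of each tested initiation factor gene in the THZ1 library (filled) and the DMSO library (open), 1 library each, ordered within each role by the ratio. EIF4G2 is furthest right in both libraries, and EIF5, EIF1AD, EIF2AK3, EIF4ENIF1 and EIF4A1 have the filled point well left of the open one.

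The eIF3 genes had the highest median log2 ratio of the 8 role groups, 0.73 over 14 tested genes. Of these 1 was higher (7.14%, beside 9.7% of all tested genes), 0 were lower (beside 21.3%) and 13 were neither. EIF3H had 6971 counts in THZ1 and 4345 in DMSO, a log2 ratio of 1.21 (1.15 to 1.26), and 94.4% of all tested genes had a lower one. The gene (ENSG00000147677) lies on chromosome 8 from 116642130 to 116766925 on the minus strand. With total counts EIF3H stood at 0.69, within 2-fold, and with the mitochondrial reference at −0.48. Of tested protein-coding genes at or above its mean level per kb, 27.5% were higher. The median log2 ratio of those genes was 0.72, beside 0.73 for the eIF3 genes, not all of which reach that level. The part of level in the eIF3 median was not tested. EIF3E had 7422 counts in THZ1 and 5709 in DMSO (0.90, 0.85 to 0.95) and EIF3F 3928 counts in THZ1 and 3225 in DMSO (0.81, 0.74 to 0.88). EIF3I at 0.75, EIF3K at 0.73, EIF3L at 0.72, EIF3G at 0.55 and EIF3D, whose protein can bind the cap, at 0.47 followed.

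The remaining eIF3 genes had ratios nearer to or below 0. EIF3A encodes the largest subunit and a scaffold of the complex, and it had 7817 counts in THZ1 and 15193 in DMSO (−0.43, −0.47 to −0.39). EIF3B, which holds EIF3G and EIF3I in the complex, had 1762 counts in THZ1 and 2944 in DMSO (−0.22, −0.30 to −0.13). EIF3J, a loosely bound subunit, stood at 0.10 and EIF3M at 0.17. The log2 difference was −1.64 for EIF3A minus EIF3H (−1.71 to −1.57) and −0.97 for EIF3B minus EIF3I (−1.07 to −0.86), so mRNAs of 1 complex stood at different proportions in THZ1 and DMSO. Per kb, EIF3A was rank 14 in THZ1 (71.9 CPM) and rank 6 in DMSO (97.0 CPM). EIF3C and EIF3CL are near-identical copies between which reads can be split, so their values of 0.90 and 0.79 are uncertain. Taken as 1 they had 1808 counts in THZ1 and 1458 in DMSO (0.84, 0.74 to 0.94). For EIF3L, 51.8% of the exonic bases overlap other genes.

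The eIF4F genes and their helicase cofactors spread on both sides of equality, with a median of −0.24 over 10 tested genes. Of these 1 was lower (10%, beside 21.3% of all tested genes) and 9 were neither. EIF4G2, which encodes the scaffold DAP5 that lacks an eIF4E-binding site, had 46034 counts in THZ1 and 41478 in DMSO (0.68, 0.66 to 0.69). It was the most abundant initiation factor mRNA per kb in both libraries, with 347 CPM in THZ1 and 217 CPM in DMSO, and took 0.251% of all counts in THZ1 and 0.225% in DMSO. EIF4G3 had 4636 counts in THZ1 and 3802 in DMSO (0.81, 0.75 to 0.87), the highest ratio of the group. EIF4G1, the main cap-dependent scaffold gene, had 6399 counts in THZ1 and 10976 in DMSO (−0.25, −0.30 to −0.21). The log2 difference was −0.93 for EIF4G1 minus EIF4G2 (−0.98 to −0.88) and −1.06 for EIF4G1 minus EIF4G3 (−1.14 to −0.99).

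EIF4E, the cap-binding protein gene, had 1456 counts in THZ1 and 2450 in DMSO (−0.23, −0.32 to −0.13), and EIF4E2, which encodes the cap-binding repressor 4EHP, had 529 counts in THZ1 and 920 in DMSO (−0.27, −0.43 to −0.12). The log2 difference of EIF4E minus EIF4E2 was 0.05 (−0.13 to 0.23). The helicase cofactor genes EIF4B (7859 counts in THZ1 and 8858 in DMSO) and EIF4H (2289 counts in THZ1 and 2590 in DMSO) each stood at 0.35. EIF4A2, an eIF4A helicase gene whose introns hold small nucleolar RNAs, had 3641 counts in THZ1 and 7149 in DMSO (−0.45, −0.51 to −0.39). EIF4A3, whose protein is the helicase of the exon junction complex and not of eIF4F, had 749 counts in THZ1 and 1637 in DMSO (−0.60, −0.73 to −0.48) and passed the rule with total counts at −1.12.

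EIF4A1 (ENSG00000161960), which encodes the main helicase of eIF4F, had only 24 counts in THZ1 and 116 in DMSO, a log2 ratio of −1.72 (−2.45 to −1.10). The gene lies on chromosome 17 from 7572706 to 7579005 on the plus strand. Of its exonic bases 48.6% are shared with other genes on the same strand, among them the readthrough gene SENP3-EIF4A1, and 13 pseudogenes of it are annotated. Reads that fit several genes can be left out of such counts, and the treatment of those reads is not given in the sources used here. Its 0.295 CPM per kb in THZ1 and 0.990 CPM in DMSO stand beside 38.7 CPM in THZ1 and 52.9 CPM in DMSO for EIF4A2, so neither its level nor its ratio can be taken as that of the mRNA. EIF4E1B and EIF4E3, with 1 or 0 counts in either library, were not tested.

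All 3 tested genes of the eIF4E-binding group lay below the median of all genes. EIF4ENIF1 had 183 counts in THZ1 and 617 in DMSO, a log2 ratio of −1.23 (−1.47 to −0.99). It spans chromosome 22 from 31436977 to 31496108 on the minus strand (ENSG00000184708). Its interval reaches inside 2-fold, so a rule that asks the whole interval to pass 2-fold does not call it. EIF4EBP2, a translation repressor gene that mTORC1 controls through its protein, had 463 counts in THZ1 and 1155 in DMSO (−0.79, −0.95 to −0.64) and passed the rule with total counts at −1.31. EIF4EBP1 had 346 counts in THZ1 and 521 in DMSO (−0.06, −0.27 to 0.13), and the log2 difference of EIF4EBP2 minus EIF4EBP1 was −0.73 (−0.98 to −0.48). EIF4EBP3 had 1 count in THZ1 and 2 in DMSO and was not tested, and 73.4% of its exonic bases are shared with the readthrough gene ANKHD1-EIF4EBP3.

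EIF5A, which encodes the hypusine-carrying factor that helps ribosomes through difficult peptide bonds, had 7175 counts in THZ1 and 10393 in DMSO (−0.01, −0.05 to 0.03). It was near the median of all tested genes, and its annotated pseudogenes had 158 counts in THZ1 and 148 in DMSO. Its relative EIF5A2 had 1320 counts in THZ1 and 1235 in DMSO (0.62, 0.51 to 0.73), and the log2 difference of EIF5A minus EIF5A2 was −0.63 (−0.75 to −0.51). EIF5AL1, an intronless copy of EIF5A, had 15 counts in THZ1 and 17 in DMSO and was not tested. EIF6, which keeps free large subunits from joining too early, had 352 counts in THZ1 and 462 in DMSO (0.13, −0.07 to 0.34).

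**Figure D3:**
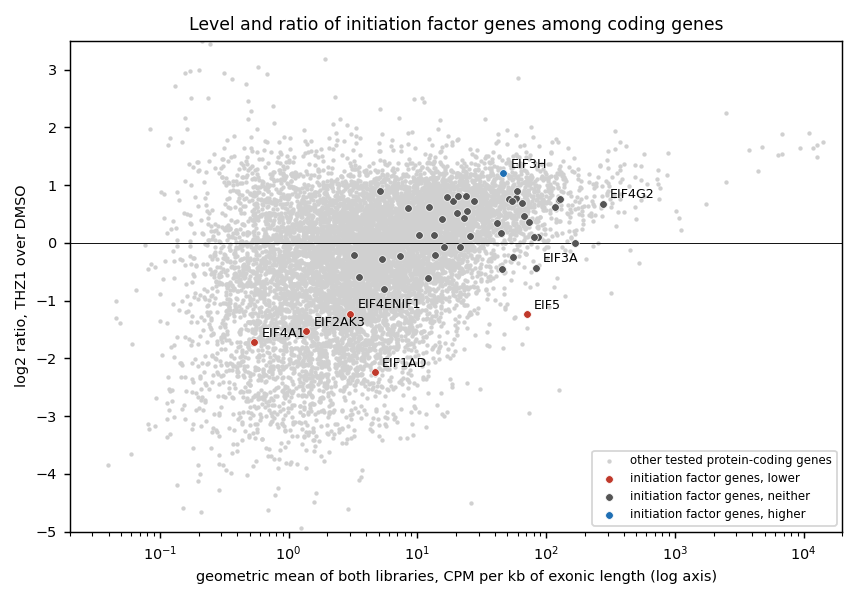
Geometric mean of both libraries in CPM per kb of exonic length (x axis, log) against the log2 ratio of THZ1 over DMSO (y axis) for tested protein-coding genes (grey) and initiation factor genes (coloured by call), 1 library per group; points beyond the axis limits are not drawn. EIF5, at a mean of 71.0 CPM per kb, lies below nearly all genes of its level, whereas EIF4A1, EIF2AK3 and EIF4ENIF1 lie at low levels among many lower genes. The level and the ratio of EIF4A1 are uncertain.

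Level and ratio were related across the family. Spearman's rho between the mean CPM per kb and the log2 ratio was 0.40 over the 50 tested initiation factor genes and 0.42 over 10881 tested protein-coding genes. With gene span rho was 0.32 and 0.08, and with exonic length −0.08 and −0.07. Genes share these 2 libraries and are not independent replicates, so these values are descriptions. The 5 lower genes had a median level of 3.0 CPM per kb, against 25.7 CPM for the other 45. At or above the level of EIF1AD, 9.79% of tested protein-coding genes were lower, at or above that of EIF4ENIF1 12.8%, and at or above that of EIF2AK3 17.2%. The part of level in these calls was not tested.

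A feature that the naming rule did not use is the base sequence at the start of the mRNA. Many mRNAs of the translation machinery begin with a C followed by a run of pyrimidines, the terminal oligopyrimidine tract through which mTORC1 controls their translation. Starts that read C and then at least 4 further pyrimidines were counted. Of the 50 tested initiation factor genes, 41 had a RefSeq promoter entry, and 9 of these (22%) had such a start, beside 693 of 9000 tested protein-coding genes (7.70%). The 9 starts are shown with 15 bases on each side, and capitals mark the pyrimidine run from the first base of the mRNA.
EIF2A, chr3:150546772-150546801, plus strand: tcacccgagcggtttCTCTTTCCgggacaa
EIF2D, chr1:206612451-206612480, minus strand: ggtttccagccgggcCCTTTTCgcggccgg
EIF2S3, chrX:24054941-24054970, plus strand: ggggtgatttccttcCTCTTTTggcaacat
EIF3D, chr22:36529152-36529181, minus strand: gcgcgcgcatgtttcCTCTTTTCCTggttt
EIF3F, chr11:7987322-7987351, plus strand: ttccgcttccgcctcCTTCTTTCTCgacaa
EIF3K, chr19:38619173-38619202, plus strand: ttccgtttccaccacCTCTTCCTgttcccg
EIF3M, chr11:32583816-32583845, plus strand: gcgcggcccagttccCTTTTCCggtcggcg
EIF4A2, chr3:186783562-186783591, plus strand: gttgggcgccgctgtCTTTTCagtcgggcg
EIF4B, chr12:53006441-53006470, plus strand: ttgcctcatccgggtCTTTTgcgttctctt

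The 9 genes had log2 ratios from −0.45 (EIF4A2) to 0.81 (EIF3F), with a median of 0.60. The 32 genes with another start had a median of 0.10 and held the 5 lower genes (15.6%). EIF4A1, with its uncertain ratio, is among these 5. Tested initiation factor genes without an entry count in neither median. They were EIF3H (1.21), EIF3E (0.90), EIF3CL (0.79), EIF2S2 (0.74), EIF3L (0.72), EIF3G (0.55), EIF2AK1 (0.52), EIF4EBP1 (−0.06) and EIF3A (−0.43). Over the 9000 tested protein-coding genes with an entry the medians were 0.13 with such a start and −0.08 without, and 18.3% and 22.2% were lower. Among the 8 eIF3 genes with an entry the medians were 0.60 for the 4 with a pyrimidine start and 0.43 for the other 4. An annotated start can differ from the one used in these cells, so the counts describe the annotation.

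**Figure D4:**
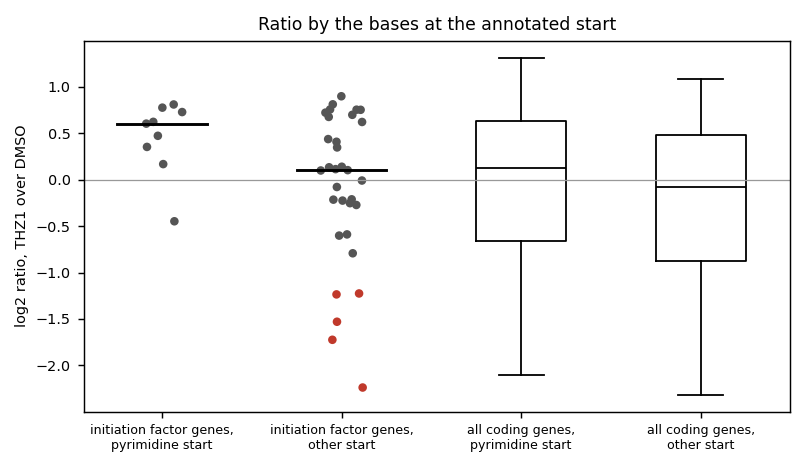
Log2 ratio of THZ1 over DMSO (y axis) for the 41 tested initiation factor genes with a promoter entry, with and without a pyrimidine start (points, red where lower by the 2-fold rule; bar: median), and for tested protein-coding genes with an entry, with and without such a start (boxes: quartiles and median; whiskers: percentiles 5 and 95). The medians are 0.60, 0.10, 0.13 and −0.08 from left to right.

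The partners of the initiation factors were read from 8 lists of translation genes, drawn from textbook knowledge with earlier results of these data known. Their counts are read against the 21.3% lower and 9.7% higher of all tested genes. Of 18 genes for cap-binding and closed-loop partners, 1 was lower (5.56%), 2 were higher (11.1%) and 15 were neither, with a median of 0.22. PABPC1, the poly(A)-binding protein gene, was higher, with 30963 counts in THZ1 and 21241 in DMSO (1.07, 1.04 to 1.09), and PAIP2, a PABP inhibitor gene, was just past the rule with 1247 counts in THZ1 and 897 in DMSO (interval 0.88 to 1.13) and within 2-fold with upper quartile scaling. ZNF598, the ubiquitin ligase gene that senses collided ribosomes, was lower, with 154 counts in THZ1 and 516 in DMSO (−1.22, −1.49 to −0.96). With total counts 3 of the list were lower and 0 higher, and both PABPC1 and PAIP2 lie below 0 on the mitochondrial reference, at −0.62 and −0.69.

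Genes tied to eIF2 phosphorylation numbered 18 tested with a median of −0.34, and 6 of them were lower (33.3%, beside 21.3% of all tested genes), 0 higher and 12 neither. Both regulatory subunit genes of the eIF2 phosphatase were lower. PPP1R15A (GADD34) had 257 counts in THZ1 and 975 in DMSO (−1.40, −1.60 to −1.20), and PPP1R15B (CReP) had 424 counts in THZ1 and 1975 in DMSO (−1.69, −1.85 to −1.54). The catalytic subunit gene PPP1CB lay the other way, with 4467 counts in THZ1 and 3268 in DMSO (0.98, 0.91 to 1.04), and passes the rule as higher with DESeq2 size factors and with protein-coding genes only. NCK1, an adaptor gene, was lower at −1.86 (−2.17 to −1.57), as were the stress targets DDIT3 (17 counts in THZ1 and 66 in DMSO, −1.40), TRIB3 (8 counts in THZ1 and 123 in DMSO, −3.34) and SESN2 (6 counts in THZ1 and 152 in DMSO, −4.03). ATF4, whose mRNA is preferentially translated when eIF2 is phosphorylated, had 3111 counts in THZ1 and 3975 in DMSO (0.17, 0.10 to 0.24). These counts do not show the phosphorylation of eIF2.

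The mTORC1 list, with 24 tested genes and a median of 0.05, held 4 lower (16.7%), 1 higher (4.17%) and 19 others. Among all tested genes the shares were 21.3% lower and 9.7% higher, and with 24 genes in the list a difference from them was not tested. RPTOR, the subunit gene that recruits 4E-binding proteins to mTORC1, had 205 counts in THZ1 and 866 in DMSO (−1.55, −1.78 to −1.33). The inhibitor genes SESN1 (−1.64), SESN2, which also belongs to the preceding list, and DEPDC5 (−1.45) were the other lower members. The kinase gene MTOR had 1758 counts in THZ1 and 2424 in DMSO (0.06, −0.03 to 0.15). LAMTOR5, a gene of the lysosomal scaffold, was higher at 1.18 (1.08 to 1.28) and lies at −0.51 on the mitochondrial reference.

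Elongation and release factors, with 10 tested genes and a median of 0.36, held 1 lower gene (10%), 1 higher gene (10%) and 8 others. EEF1B2 was higher, with 22693 counts in THZ1 and 12902 in DMSO (1.34, 1.31 to 1.37), and lies at −0.35 on the mitochondrial reference, while EEF1D was lower at −1.02 (−1.24 to −0.80) and falls within 2-fold with DESeq2 size factors. EEF1A1, the most abundant of them, had 202078 counts in THZ1 and 183289 in DMSO (0.67). The exon junction partners of EIF4A3 split, with CWC22 (−1.82, −1.98 to −1.66) and PYM1 (−1.14) lower, UPF3B (1.07) and RBM8A (1.03) higher and 3 neither, and these higher genes lie at −0.62 and −0.66 on the mitochondrial reference. RBM8A falls within 2-fold with upper quartile scaling. With total counts none of the higher calls in these lists held. All 7 genes of ribosome recycling and subunit release and all 8 tested genes of mitochondrial initiation, elongation and release were neither, with medians of 0.16 and 0.38. In ribosome recycling SBDS stood highest at 0.83 and LSG1 lowest at −0.46, and in the mitochondrial list MTRF1L at 0.70 and MTIF2 at 0.09. Of the 2 hypusination enzymes of eIF5A, DOHH had 22 counts in THZ1 and 89 in DMSO (−1.47, −2.24 to −0.80) and DHPS, with 9 counts in THZ1 and 18 in DMSO, was not tested.

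**Figure D5:**
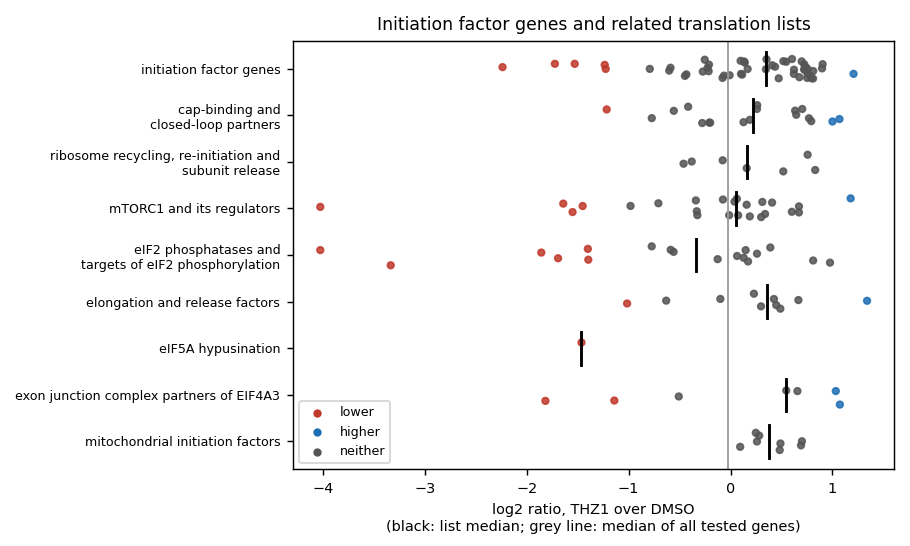
Log2 ratio of THZ1 over DMSO (x axis) of each tested gene in the initiation factor family and in 8 related lists, coloured by call, with list medians as black bars and the median of all tested genes as a grey line, 1 library per group. The initiation factor genes have a median of 0.35 and the genes tied to eIF2 phosphorylation one of −0.34.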

How the data were processed

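The authors deposited raw read counts per gene for 1 THZ1 and 1 DMSO library, whole numbers that were not normalized. Reads went through featureCounts 1.6.0, HISAT2 2.1.0 and Trimmomatic 0.38 on GRCh38, tools named without an order in the submitters' processing notes. Not given in the sources used here are the strand setting, the annotation release and the treatment of reads that fit several genes, so antisense and overlapping genes can share or lose reads. Libraries came from TRIzol-extracted RNA and an mRNA kit, per the labels' protocols.

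Of 58884 gene IDs, 58611 were in GENCODE 29, which gave types, coordinates and exonic lengths (all annotated exons merged). TMM factors (edgeR 4.0.16, R 4.3.3) from genes that reached a count of 30 in either library gave effective sizes of 15320940 for THZ1 and 22049153 for DMSO. Log2 ratios add 0.5 to each count. Intervals are exact Clopper-Pearson 95% intervals of the THZ1 share, and intervals of differences between genes use the normal approximation for log counts. Sequencing reads are not independent molecules, so these cover counting error only. Calls were tried on simulated counts with Poisson error at the TMM sizes, which does not cover variation between cultures or the choice of scaling. Promoters are from RefSeq (GRCh38.p14), matched by symbol.

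The members, the lists and the pairs of genes set against each other were chosen with earlier results of these data known. Every member is accounted for. Related lists name up to 3 members furthest from 0 among those that reach a count of 100 in either library. The recycling and mitochondrial lists instead name the tested genes with the highest and the lowest ratio. Other genes were named after their values were seen. DESeq2 1.42.0 served as an alternative scaling. Other software was scipy 1.17.1, numpy 2.4.6, pandas 2.3.3, matplotlib 3.10.9 and Python 3.11.15.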

Additional observations from a re-analysis of the deposited data

How the results depend on the processing

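The counts of 5 lower and 1 higher initiation factor genes were the same with DESeq2 size factors, the upper quartile, 5 counts added, a fit on protein-coding genes, thinning to equal totals, and a count minimum of 1 or of 100. With total counts 8 were lower and 0 higher, where EIF2B5, EIF4A3 and EIF4EBP2 joined and EIF3H left, and the median was −0.165. With the mitochondrial mRNAs 35 were lower and 0 higher, the median was −1.34 and EIF3H stood at −0.483. These shifts follow from the scaling itself. Asking the whole interval to pass 2-fold left 4 lower, without EIF4ENIF1, and 1 higher. TMM factors from all genes, an alternative chosen after seeing the data, left the 5 and 1 calls and gave a median of 0.248. Over all tested genes, total counts gave 4260 lower and 368 higher, and the mitochondrial mRNAs gave 10000 lower and 88 higher. The number higher was 2223 with a count minimum of 1, which tests more genes, and 670 when the whole interval had to pass 2-fold. No paired analysis was possible because each group had 1 library, and no library could be left out. The 5 untested genes with a level given above had 17 counts or fewer in either library, too few for a ratio, and the cause was not tested.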
